A study of Mus musculus with 16 samples.

Results

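The response of each gene to interleukin-6 (IL-6) was compared between 2 lines of mouse Ba/F3 cells labelled with different receptors. The response was the log2 change under IL-6 relative to medium. The difference of responses was the response of ChimP3V3 cells minus that of gp130:IL-6R cells, so a negative value marks a lower response in ChimP3V3 cells. All 16 libraries of the study entered the comparison. Of 25650 genes, 9540 had enough counts to be tested, and 2280 of these (23.9%) had a difference of responses at an adjusted p under 0.05 (edgeR's quasi-likelihood test, Benjamini-Hochberg over all genes tested). The difference was higher in ChimP3V3 cells for 1182 genes (12.4%) and lower for 1098 (11.5%). This split moved with the processing. Without the filter on low counts it was 903 higher and 1257 lower, and with a filter of at least 5 CPM in 4 libraries it was 956 higher and 1283 lower. The share of higher genes among those called was 51.8%, and lay between 41.6% and 42.9% without any 1 of the ChimP3V3 IL-6 libraries, gp130:IL-6R IL-6 replicate 1 or gp130:IL-6R IL-6 replicate 4. A difference of at least 1.5-fold was found for 1006 genes (10.5%), 394 higher (4.13%) and 612 lower (6.42%).

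Ba/F3 is a mouse pro-B cell line that grows on interleukin-3. The ChimP3V3 line carried a designed receptor labelled ChimP3V3:gp130Box1/2, and the series title presents such receptors as acting on STAT3 above other signals. The other line is labelled gp130:IL-6R wt, that is gp130 and the IL-6 receptor with the mark wt, and is called gp130:IL-6R here. The labels do not say from which species the receptor chains came. The groups were ChimP3V3 cells given IL-6 at 100 ng/ml, ChimP3V3 cells in medium, gp130:IL-6R cells given the same dose and gp130:IL-6R cells in medium, with 4 libraries each. Each receptor was present in 1 line only, so effects of the receptor and of other differences between the lines cannot be told apart. The time under IL-6, the presence of interleukin-3 and whether a line was 1 clone are not given in the sources used here. Nothing in the labels says that the libraries of a group came from separate cultures, so the p-values measure the spread between these libraries, which may be technical. Between libraries of 1 group, the chi-square per degree of freedom over genes ranged from 0.964 to 1.17, so they differed little beyond counting error.

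When IL-6 and its receptor bring gp130 chains together, JAK kinases held at the membrane-near Box1/2 region phosphorylate tyrosines further along the chain. A membrane-near tyrosine recruits the phosphatase SHP2, which leads to RAS and ERK, and tyrosines closer to the end of the chain recruit STAT3. STAT3 turns on its own inhibitor Socs3, while ERK turns on early-response genes such as Fos and Egr2 and the phosphatases that end its signal.

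Library totals ranged from 1275112 to 1650348 counts, so that 3 counts, the limit for a gene with 0 counts, were worth 1.82 to 2.35 CPM (counts per 1000000 counts) depending on the library. Il6st, which encodes gp130, had 0 counts in every ChimP3V3 library, and 255 to 278 counts under IL-6 and 181 to 235 counts in medium in gp130:IL-6R libraries. Il6ra, the mouse gene of the IL-6 receptor, had 0 counts in every ChimP3V3 library, and 0 to 1 counts under IL-6 and 0 counts in medium in gp130:IL-6R libraries, so its counts do not show the labelled receptor. Of 17 pro-B markers, 12 had a count in at least 1 library and 5 had 0 counts in all 16, among them Rag1, Rag2, Dntt and Blnk. Their summed level was 108 to 146 CPM under IL-6 and 111 to 117 CPM in medium in ChimP3V3 cells, and 68.6 to 77.7 CPM under IL-6 and 78.8 to 95.9 CPM in medium in gp130:IL-6R cells. Cd79b, a chain of the B cell receptor complex, and Vpreb1, of the pre-B cell receptor, had counts in every library. Mitochondrial genes took 1.66% to 1.75% of the counts under IL-6 and 1.38% to 1.45% in medium in ChimP3V3 cells, and 1.43% to 1.62% under IL-6 and 1.14% to 1.19% in medium in gp130:IL-6R cells. Ribosomal protein genes took 7.49% to 7.85% and 6.71% to 6.94% in ChimP3V3 cells under IL-6 and in medium, and 6.94% to 7.42% and 5.92% to 6.33% in gp130:IL-6R cells. Their part in the results below was not tested. In bulk RNA of this kind, fewer cells of a type and less RNA per cell cannot be told apart.

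Each gene was classed by 3 calls, the response in each line and the difference between them. A response was called in 2625 genes (27.5%) in ChimP3V3 cells and in 4769 genes (50.0%) in gp130:IL-6R cells. Lost means that the response passed in gp130:IL-6R cells and not in ChimP3V3 cells, with a difference that passed, and held 1310 genes, or 13.7% of those tested (708 or 7.42% raised and 602 or 6.31% lowered in gp130:IL-6R cells). Reduced means that both passed in 1 direction with a smaller change in ChimP3V3 cells, and held 288 genes (3.02%; 171 or 1.79% raised, 117 or 1.23% lowered). Enlarged is the opposite case, and held 46 genes (0.482%; 28 or 0.294% raised, 18 or 0.189% lowered). Gained genes responded in ChimP3V3 cells and not in gp130:IL-6R cells, and numbered 343 (3.60%; 242 or 2.54% raised, 101 or 1.06% lowered in ChimP3V3 cells). Reversed genes moved in opposite directions, and numbered 218 (2.29%), of which 74 (0.776%) were raised and 144 (1.51%) lowered in gp130:IL-6R cells.

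Kept genes changed in 1 direction in both lines with no difference past the threshold, and numbered 1223 (12.8%; 631 or 6.61% raised, 592 or 6.21% lowered). In 1034 of them (10.8% of all genes tested) the 95% interval of the difference lay within 1.5-fold either way, which is called close here. Median responses of kept rises were 0.33 log2 units in ChimP3V3 cells and 0.38 in gp130:IL-6R cells. Those of kept falls were -0.37 and -0.40. The bound of 1.5-fold is wider than these medians, so close does not mean that the responses were equal. A further 2191 genes had a called response in at least 1 line, but neither a called difference nor a call in both lines in the same direction, and were left unresolved. In 75 genes (0.786%) the difference was called with neither response called. At the edge of the call, Zc3h11a_2 lay just inside with an adjusted p of 0.0498 and Ofd1 just outside with 0.0501 (edgeR).

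In gp130:IL-6R cells 1558 genes (16.3%) changed by at least 1.5-fold. Of these, 562 (36.1%) were lost, 445 (28.6%) unresolved, 291 kept, 202 reduced, 55 reversed and 3 enlarged. Their median change, taken in the direction of the gp130:IL-6R response, was 0.21 log2 units in ChimP3V3 cells and 0.81 in gp130:IL-6R cells, and 1154 of them (74.1%) had a ChimP3V3 estimate of the same sign. The 510 genes (5.35%) that changed by at least 1.5-fold in ChimP3V3 cells were 218 kept, 122 unresolved, 82 gained, 41 reversed, 27 enlarged and 20 reduced genes. Their median change, in the direction of the ChimP3V3 response, was 0.78 in ChimP3V3 cells and 0.48 in gp130:IL-6R cells. Both sets were picked by the size of 1 response, which raises their median in the line that picked them. Across all 9540 genes the 2 responses, which share no library, had a Pearson r of 0.284 and a Spearman rho of 0.382. Genes are not independent replicates, and these values describe the spread of the points.

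**Figure D1:**
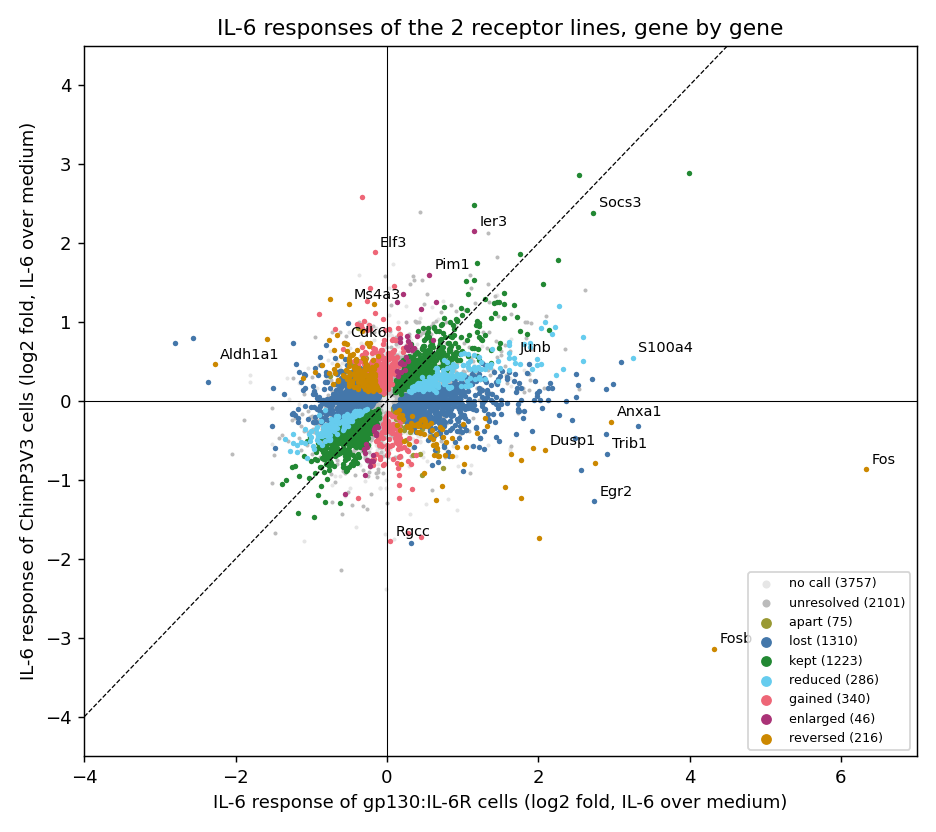
IL-6 response of ChimP3V3 cells (vertical axis) against that of gp130:IL-6R cells (horizontal axis), both as log2 fold of IL-6 over medium, 1 point per tested gene, coloured by class. Genes with 0 counts in a whole group are not drawn, so counts in the legend can be below those in the text. The dashed line marks equal responses. Fos and Fosb lie far to the lower right, Pim1 and Ier3 above the line, and Socs3 near it.

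Over all genes tested, 23.9% had a called difference and 12.8% were kept, and these shares apply to every list below. IL-6 raised 16.2% and lowered 11.4% of all genes tested in ChimP3V3 cells, and 25.7% and 24.3% in gp130:IL-6R cells. The JAK-STAT list held 32 feedback inhibitors and STAT3 targets, of which 23 were tested. The difference was called in 7 (30.4%, against 23.9% of all genes tested), 1 higher and 6 lower, with a median of -0.06 against 0.02 over all genes tested. Kept members numbered 6 (Socs1, Socs3, Cish, Myc, Vegfa and Osm), and 9 members had no call at all. Pim1 was enlarged, Junb, Mcl1 and Cebpd were reduced, Socs2 and Cebpb were lost, and Fos was reversed. Bcl3, a further STAT3 target, was too low to be tested.

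Socs3, the inhibitor of gp130 signalling that STAT3 induces (ENSMUSG00000053113, chromosome 11, 117856905 to 117860873, minus strand, GRCm39 as for all positions of genes), had 72.3, 66.2, 65.2 and 61.9 CPM in ChimP3V3 cells under IL-6 and 13.9, 10.9, 16.5 and 9.51 CPM in ChimP3V3 medium, and 132, 134, 169 and 149 CPM in gp130:IL-6R cells under IL-6 and 21.0, 21.0, 18.5 and 26.9 CPM in gp130:IL-6R medium. All IL-6 libraries lay above all medium libraries in both lines, and gp130:IL-6R cells stood higher than ChimP3V3 cells in both conditions. The log2 responses were 2.39 in ChimP3V3 cells and 2.73 in gp130:IL-6R cells, and their difference did not pass (edgeR: -0.35, SE 0.230, adjusted p = 0.299). The 95% interval of this difference ran from -0.81 to 0.12, so it allows a clearly smaller response in ChimP3V3 cells. Osm, which encodes the cytokine oncostatin M, was kept with a difference of -0.47 (adjusted p = 0.283). Socs1, a second JAK inhibitor, averaged 9.34 CPM under IL-6 and 1.17 CPM in medium in ChimP3V3 cells, and 6.47 and 0.337 CPM in gp130:IL-6R cells, and its difference of -1.10 had a wide SE of 0.936.

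Pim1 stood apart on this list. It encodes a survival kinase induced by STAT3 and STAT5 (ENSMUSG00000024014, chromosome 17, 29709727 to 29715086, plus strand), and had 364, 354, 367 and 356 CPM in ChimP3V3 cells under IL-6 and 131, 115, 114 and 115 CPM in ChimP3V3 medium, and 225, 249.9, 245 and 251 CPM in gp130:IL-6R cells under IL-6 and 164, 167, 164 and 165 CPM in gp130:IL-6R medium. IL-6 and medium libraries did not overlap in either line, and ChimP3V3 cells held the lowest levels in medium and the highest under IL-6. The response was 1.60 log2 units in ChimP3V3 cells and 0.56 in gp130:IL-6R cells, a difference of 1.05 (SE 0.0764, adjusted p = 3.38e-14, edgeR). Junb, an AP-1 subunit whose gene STAT3 can induce, was reduced, with responses of 0.55 in ChimP3V3 cells and 1.68 in gp130:IL-6R cells (difference -1.13, SE 0.0943, adjusted p = 1.66e-12). Its gene overlaps Prdx2 on the opposite strand, and the strand setting of the counting is not given in the sources used here. Stat3 itself had no called response in either line, at 0.02 in ChimP3V3 cells and 0.06 in gp130:IL-6R cells, and its gene overlaps Stat5a. Irf1, another STAT target, was unresolved, with responses of 0.29 (adjusted p = 0.0195) in ChimP3V3 cells and -0.01 (adjusted p = 0.935) in gp130:IL-6R cells and a difference of 0.30, adjusted p = 0.0841. That difference passed without gp130:IL-6R IL-6 replicate 2 (adjusted p = 0.0382). Myc, the growth regulator, was kept with a difference of -0.35, adjusted p = 0.102, which passed without ChimP3V3 IL-6 replicate 2 (adjusted p = 0.0437). Cish, an inhibitor best known downstream of STAT5, averaged 14.2 CPM under IL-6 and 7.82 CPM in medium in ChimP3V3 cells, and 11.6 and 7.02 CPM in gp130:IL-6R cells (difference 0.13, adjusted p = 0.872), and its IL-6 and medium libraries overlapped in both lines. Both responses of Cish were near the threshold (edgeR, adjusted p = 0.0227 in ChimP3V3 cells and 0.0408 in gp130:IL-6R cells). It was kept in 15 of 28 alternative settings and had no call in DESeq2.

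The early-response genes and brakes of the ERK pathway were the list with the lowest median difference among the lists of 10 or more tested genes, at -0.77. Of 39 genes, 27 were tested. IL-6 raised 11 and lowered 5 of them in ChimP3V3 cells (16.2% and 11.4% of all genes tested), and raised 24 and lowered 0 in gp130:IL-6R cells (25.7% and 24.3%). Of these members, 2 had 0 counts in a whole group. The other 25 had 22 rises and 0 falls in gp130:IL-6R cells, and 11 rises and 5 falls in ChimP3V3 cells. The difference was called in 15 of 27 (55.6%), 2 higher and 13 lower. Lost members were Fosl2, Jun, Egr2, Klf10 and Trib1, reversed members were Fos, Fosb, Ier5, Dusp1 and Klf6, and reduced members were Junb, Ier2 and Phlda1. A further 6 were kept and 4 unresolved. The 2 higher genes were Ier3 and Maff.

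Fos, an AP-1 subunit (ENSMUSG00000021250, chromosome 12, 85520664 to 85524047, plus strand), had 13.7, 11.2, 12.4 and 14.5 CPM in ChimP3V3 cells under IL-6 and 23.6, 24.4, 22.04 and 24.4 CPM in ChimP3V3 medium, and 64.0, 69.7, 50.6 and 53.7 CPM in gp130:IL-6R cells under IL-6 and 0.636, 1.20, 0.713 and 0 CPM in gp130:IL-6R medium. In ChimP3V3 cells the IL-6 libraries lay below all medium libraries, whereas in gp130:IL-6R cells they lay far above them. Fos changed by -0.87 log2 units in ChimP3V3 cells and 6.33 in gp130:IL-6R cells, a difference of -7.20, SE 0.380, adjusted p = 1.3e-18 (edgeR). Fosb, a related subunit, had a difference of -7.46, SE 0.541, adjusted p = 2.86e-14, with means of 1.72 CPM under IL-6 and 15.7 CPM in medium in ChimP3V3 cells, and 17.9 and 0.788 CPM in gp130:IL-6R cells. Both genes were far higher in ChimP3V3 medium than in gp130:IL-6R medium, by 5.01 and 4.14 log2 units, and the medium libraries enter the difference of responses as well.

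Dusp1, a phosphatase that switches off MAP kinases (ENSMUSG00000024190, chromosome 17, 26724564 to 26781102, minus strand), had 43.4, 54.3, 48.1 and 55.5 CPM in ChimP3V3 cells under IL-6 and 77.8, 76.3, 73.0 and 81.5 CPM in ChimP3V3 medium, and 62.0, 63.2, 60.3 and 61.2 CPM in gp130:IL-6R cells under IL-6 and 11.5, 14.4, 14.3 and 17.7 CPM in gp130:IL-6R medium. Its level fell under IL-6 in ChimP3V3 cells and rose in gp130:IL-6R cells, with no overlap between IL-6 and medium libraries in either line. Under IL-6 the ChimP3V3 libraries lay just below the gp130:IL-6R libraries. The difference was -2.71, SE 0.167, adjusted p = 1.72e-16 (edgeR), and the gene overlaps Ergic1 on the opposite strand. Klf6, a zinc-finger factor, was reversed in the same way, with responses of -0.22 in ChimP3V3 cells and 1.29 in gp130:IL-6R cells and a difference of -1.51, SE 0.0751, adjusted p = 2.75e-19.

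Egr2, a zinc-finger factor induced through ERK (ENSMUSG00000037868, chromosome 10, 67371305 to 67378018, plus strand), had 1.45, 0.743, 1.55 and 0.804 CPM in ChimP3V3 cells under IL-6 and 2.78, 1.92, 2.75 and 4.07 CPM in ChimP3V3 medium, and 15.0, 12.2, 12.5 and 10.1 CPM in gp130:IL-6R cells under IL-6 and 2.55, 1.80, 0.713 and 1.97 CPM in gp130:IL-6R medium. The 4 gp130:IL-6R libraries under IL-6 lay above all the others. Its response was -1.27 (adjusted p = 0.113) in ChimP3V3 cells and 2.74 (adjusted p = 3.32e-08) in gp130:IL-6R cells, with a difference of -4.01, SE 0.692, adjusted p = 1.98e-05. Trib1, a pseudokinase that binds the MAP kinase kinases and C/EBP factors, had 2.89, 4.46, 4.65 and 3.22 CPM in ChimP3V3 cells under IL-6 and 6.95, 6.41, 6.89 and 4.07 CPM in ChimP3V3 medium, and 11.6, 16.5, 15.9 and 12.0 CPM in gp130:IL-6R cells under IL-6 and 1.91, 0, 1.43 and 3.94 CPM in gp130:IL-6R medium. Its difference was -3.57, SE 0.580, adjusted p = 7.64e-06 (-4.25 without gp130:IL-6R medium replicate 4), and again gp130:IL-6R libraries under IL-6 lay above all other libraries.

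Ier3, an early-response survival gene (ENSMUSG00000003541, chromosome 17, 36132576 to 36133815, plus strand), went the other way. It had 202, 192, 210.2 and 211 CPM in ChimP3V3 cells under IL-6 and 45.2, 37.2, 53.7 and 46.9 CPM in ChimP3V3 medium, and 375, 352, 339 and 329.6 CPM in gp130:IL-6R cells under IL-6 and 147, 153, 169.7 and 158 CPM in gp130:IL-6R medium. IL-6 libraries lay above medium libraries in both lines, and all 4 ChimP3V3 medium libraries lay far below the rest. The response of 2.16 in ChimP3V3 cells exceeded that of 1.16 in gp130:IL-6R cells by 1.00, SE 0.107, adjusted p = 1.41e-09 (edgeR), while the level reached under IL-6 was lower in ChimP3V3 cells. Dusp6, the ERK-specific phosphatase, was kept, with responses of 0.54 in ChimP3V3 cells and 0.85 in gp130:IL-6R cells and a difference of -0.31, adjusted p = 0.166. Spred1, an inhibitor of the RAS pathway, responded by 0.20 (adjusted p = 0.124) in ChimP3V3 cells and 0.27 (adjusted p = 0.00486) in gp130:IL-6R cells, with no difference past the threshold (-0.07, adjusted p = 0.750).

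The promoters of 4 genes are shown because these genes hold a STAT site or a cyclic AMP response element in the 250 bases before their start and fell into different classes: Socs3 kept, Irf1 unresolved, Gbp7 lost and Dusp1 reversed. They come from RefSeq on GRCm38.p6, an earlier build than the GRCm39 of the counts, at chr11:117969367-117969616 (minus strand) for Socs3, chr11:53769764-53770013 (plus strand) for Irf1, chr3:142530086-142530335 (plus strand) for Gbp7 and chr17:26508473-26508722 (minus strand) for Dusp1. Capitals mark STAT sites (TTCNNNGAA) in the first 3 and, in Dusp1, the cyclic AMP response element (TGACGTCA) and the E-box (CACGTG).
Socs3: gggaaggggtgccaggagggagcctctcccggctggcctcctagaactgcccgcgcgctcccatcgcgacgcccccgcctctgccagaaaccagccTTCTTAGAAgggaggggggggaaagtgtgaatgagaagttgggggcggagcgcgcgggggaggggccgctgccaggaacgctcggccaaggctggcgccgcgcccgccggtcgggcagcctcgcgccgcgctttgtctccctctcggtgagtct
Irf1: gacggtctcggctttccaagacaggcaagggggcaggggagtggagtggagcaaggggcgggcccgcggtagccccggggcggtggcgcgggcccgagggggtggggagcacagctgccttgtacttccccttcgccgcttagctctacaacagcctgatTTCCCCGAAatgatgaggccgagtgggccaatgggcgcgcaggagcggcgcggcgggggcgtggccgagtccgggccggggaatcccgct
Gbp7: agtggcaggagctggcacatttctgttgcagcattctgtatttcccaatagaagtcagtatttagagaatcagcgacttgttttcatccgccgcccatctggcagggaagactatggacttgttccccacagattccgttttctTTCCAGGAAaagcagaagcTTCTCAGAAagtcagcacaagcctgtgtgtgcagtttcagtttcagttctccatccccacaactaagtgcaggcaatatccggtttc
Dusp1: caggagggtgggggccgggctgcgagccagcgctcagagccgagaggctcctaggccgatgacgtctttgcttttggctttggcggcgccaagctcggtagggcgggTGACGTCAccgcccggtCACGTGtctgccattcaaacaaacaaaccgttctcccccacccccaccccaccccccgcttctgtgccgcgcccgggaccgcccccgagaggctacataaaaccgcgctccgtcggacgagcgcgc

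Counted from the start, the STAT site of Socs3 lay at -154 to -146, that of Irf1 at -90 to -82, and those of Gbp7 at -106 to -98 and -87 to -79. In Dusp1 the response element lay at -143 to -136 and the E-box at -126 to -121. A STAT site on either strand was found in 474 of 7735 tested genes with a promoter (6.13%) and in 7.18% of all 27025 promoters. It was found in 33 of 556 promoters of lost genes that rose in gp130:IL-6R cells (5.94%) and in 26 of 487 (5.34%) of the kept genes that rose. The cyclic AMP response element was in 5.13% of promoters of kept genes that rose, against 2.99% of tested genes and 1.62% of all promoters, and the E-box in 12.2% of the lost genes that rose, against 8.90% and 6.05%. Neither was particular to that class. The response element was in 4.63% of kept genes that fell. Among genes at least 1.5-fold higher under IL-6 in gp130:IL-6R cells, the order was the other way. There it was in 1 of 120 promoters of kept or enlarged genes (0.833%) and in 14 of 344 of lost or reversed genes (4.07%). The E-box was in 14.6% of reduced genes that fell, 11.7% of reduced genes that rose, 10.1% of kept genes that rose and 7.65% of kept genes that fell. The AP-1 site (TGANTCA) was in 4.86% of the lost genes that rose, against 4.09% of tested genes and 6.87% of all promoters. The CArG box of serum response elements was in 0.719% of the lost genes that rose, against 1.05% and 1.40%. Matches of different motifs may overlap in part, and a match describes letters and not a bound site.

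Reversed genes included some of the widest gaps between the lines. Aldh1a1, which makes retinoic acid from retinaldehyde (ENSMUSG00000053279, chromosome 19, 20470079 to 20620829, plus strand), had 721, 747, 803 and 777 CPM in ChimP3V3 cells under IL-6 and 549.6, 553, 576 and 524 CPM in ChimP3V3 medium, and 9.53, 6.46, 4.85 and 4.42 CPM in gp130:IL-6R cells under IL-6 and 27.4, 32.5, 35.7 and 27.6 CPM in gp130:IL-6R medium. IL-6 libraries lay above medium libraries in ChimP3V3 cells and below them in gp130:IL-6R cells. The difference was 2.74, SE 0.224, adjusted p = 8.8e-13 (edgeR), from responses of 0.47 in ChimP3V3 cells and -2.27 in gp130:IL-6R cells. Angptl2, a secreted angiopoietin-like protein, averaged 2.51 CPM under IL-6 and 8.52 CPM in medium in ChimP3V3 cells, and 14.6 and 3.58 CPM in gp130:IL-6R cells (difference -3.74, SE 0.532, adjusted p = 6.62e-07). Trim16, a ubiquitin ligase, had a difference of -3.53, adjusted p = 1.56e-06, but its ChimP3V3 fall was near the threshold, at -0.78 (adjusted p = 0.0380) and the gene was lost, not reversed, without ChimP3V3 IL-6 replicate 1 or 3 or ChimP3V3 medium replicate 1 or 2. Olfm1, a secreted glycoprotein, averaged 15.8 CPM under IL-6 and 8.10 CPM in medium in ChimP3V3 cells, and had 0 counts under IL-6 and 6 counts in medium in gp130:IL-6R cells. With a floor of 3 counts over the group, the gp130:IL-6R level was at least 1.96-fold lower under IL-6. It was lost without ChimP3V3 IL-6 replicate 3.

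Ms4a3, a membrane protein of early myeloid cells, was reversed on a far lower level in ChimP3V3 cells, with means of 16.3 CPM under IL-6 and 6.99 CPM in medium in ChimP3V3 cells, and 165 and 234 CPM in gp130:IL-6R cells (difference 1.73, SE 0.253, adjusted p = 1.08e-06). Gab1, an adaptor that carries SHP2 to activated receptors, averaged 44.7 CPM under IL-6 and 26.2 CPM in medium in ChimP3V3 cells, and 8.86 and 15.0 CPM in gp130:IL-6R cells, with responses of 0.77 in ChimP3V3 cells and -0.77 in gp130:IL-6R cells and a difference of 1.54, SE 0.288, adjusted p = 6.98e-05. Ptpn11, which encodes SHP2, was also reversed, with responses of 0.27 in ChimP3V3 cells and -0.26 in gp130:IL-6R cells (difference 0.53, adjusted p = 5.38e-06). On the list of cytokine receptors, JAKs and STATs, 9 of 32 tested genes (28.1%, against 23.9% of all genes tested) had a called difference, 5 higher and 4 lower, and these 2 and the interferon-gamma receptor gene Ifngr1 (difference 0.86, adjusted p = 9.5e-07) were its reversed members. Csf2rb2, a beta chain of the interleukin-3 receptor, was lost, with means of 331 CPM under IL-6 and 343 CPM in medium in ChimP3V3 cells, and 278 and 188 CPM in gp130:IL-6R cells. Its sequence is close to that of Csf2rb, so the share of reads between them is uncertain. Csf2rb, Sh2b3 and Shc1 were lost as well.

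Lost genes with a rise in gp130:IL-6R cells also included Slc31a2, a copper transporter gene, with means of 2.10 CPM under IL-6 and 3.92 CPM in medium in ChimP3V3 cells, and 13.0 and 2.04 CPM in gp130:IL-6R cells (difference -3.44, SE 0.652, adjusted p = 8.28e-05, or -4.06 without gp130:IL-6R medium replicate 2). Tlr4, the lipopolysaccharide receptor, averaged 14.2 CPM under IL-6 and 18.8 CPM in medium in ChimP3V3 cells, and 7.87 and 0.967 CPM in gp130:IL-6R cells (difference -3.31, SE 0.546, adjusted p = 9.58e-06), so that ChimP3V3 medium already stood above both gp130:IL-6R groups. Lost genes with a fall in gp130:IL-6R cells included Fam216a, whose libraries scattered widely. It had 16.6, 23.8, 17.8 and 12.1 CPM in ChimP3V3 cells under IL-6 and 11.1, 19.2, 0 and 9.51 CPM in ChimP3V3 medium, and 0.681, 20.8, 0 and 13.3 CPM in gp130:IL-6R cells under IL-6 and 54.1, 34.3, 62.7 and 57.8 CPM in gp130:IL-6R medium. The gp130:IL-6R medium libraries lay above all the others, which overlapped. Its difference of 3.36, adjusted p = 2.59e-05 was 4.18 without gp130:IL-6R IL-6 replicate 2 and did not pass in DESeq2 (adjusted p = 0.0948), and its gene overlaps Gpn3 and Vps29. Mip, a water channel of the lens, averaged 7.91 CPM under IL-6 and 6.75 CPM in medium in ChimP3V3 cells, and 0.870 and 4.803 CPM in gp130:IL-6R cells (difference 2.60, adjusted p = 0.00295, or 3.42 without gp130:IL-6R IL-6 replicate 2), and Plpp7, of the phospholipid phosphatase family, had a difference of 1.98, adjusted p = 0.00648. Cltrn, which encodes collectrin, had the weakest support of these, at 1.67, adjusted p = 0.0361. It did not pass when any 1 of 8 libraries was left out (ChimP3V3 IL-6 replicate 2, ChimP3V3 medium replicates 1, 2 and 4, gp130:IL-6R IL-6 replicates 3 and 4, gp130:IL-6R medium replicates 2 and 4), with adjusted p from 0.052 to 0.26, and was 1.07 without ChimP3V3 IL-6 replicate 2.

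Reduced genes kept their direction with a smaller change. S100a4, a calcium-binding protein of motile cells (ENSMUSG00000001020, chromosome 3, 90511078 to 90513352, plus strand), had 480.0, 491, 497 and 526 CPM in ChimP3V3 cells under IL-6 and 346, 339, 333 and 340.2 CPM in ChimP3V3 medium, and 102, 95.5, 104 and 102 CPM in gp130:IL-6R cells under IL-6 and 10.2, 9.02, 14.3 and 9.20 CPM in gp130:IL-6R medium. IL-6 libraries lay above medium libraries in both lines, and every ChimP3V3 library lay above every gp130:IL-6R library. Its responses were 0.55 in ChimP3V3 cells and 3.25 in gp130:IL-6R cells (difference -2.70, SE 0.139, adjusted p = 7.13e-19, edgeR). Hba-a2, an alpha globin gene, averaged 848 CPM under IL-6 and 593 CPM in medium in ChimP3V3 cells, and 6.23 and 1.01 CPM in gp130:IL-6R cells (difference -2.07, adjusted p = 0.00430, or -3.13 without gp130:IL-6R medium replicate 3). Its reads cannot be told apart with certainty from those of Hba-a1. In gp130:IL-6R cells it had 37 counts under IL-6 and 6 in medium over the whole group, near the floor. Its response there is therefore uncertain, and limma on log2(CPM + 1) classed Hba-a2 as lost. Fbxo40, an F-box protein gene, averaged 41.8 CPM under IL-6 and 29.0 CPM in medium in ChimP3V3 cells, and 2.59 CPM under IL-6 and 0 counts in medium in gp130:IL-6R cells, a rise there of at least 5.32-fold with a floor of 3 counts over the group. Trim59, a ubiquitin ligase gene, averaged 74.1 and 54.3 CPM in ChimP3V3 cells under IL-6 and in medium, and 2.36 CPM and 0 counts in gp130:IL-6R cells, at least 4.85-fold higher under IL-6. Over the whole gp130:IL-6R IL-6 group, Fbxo40 had 15 counts and Trim59 had 14, so the sizes of their responses there are uncertain. Limma on log2(CPM + 1) classed both genes as lost, and DESeq2 classed Fbxo40 as lost.

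Reduced falls were led by Pmvk and Fdps, both enzymes of cholesterol synthesis, with Fubp1, a regulator of Myc transcription, and Dzip3, a ubiquitin ligase gene. Fubp1 averaged 225 CPM under IL-6 and 288 CPM in medium in ChimP3V3 cells, and 231 and 489 CPM in gp130:IL-6R cells, and its difference was 0.72, SE 0.0672, adjusted p = 3.57e-11 (edgeR). Dzip3 had a difference of 0.72, adjusted p = 7.56e-09, but its ChimP3V3 fall was near the threshold, at -0.17 (adjusted p = 0.0469), and it was lost without ChimP3V3 medium replicate 1, 2 or 4. Pmvk, with a difference of 0.87, adjusted p = 0.00143, was lost without ChimP3V3 IL-6 replicate 1.

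Enlarged rises beside Pim1 and Ier3 were Ankrd37, a gene induced by hypoxia, and Arl4a, a small GTPase gene. Ankrd37 averaged 107 CPM under IL-6 and 47.6 CPM in medium in ChimP3V3 cells, and 166 and 121 CPM in gp130:IL-6R cells (difference 0.72, SE 0.123, adjusted p = 1.6e-05), and it overlaps Lrp2bp and Ufsp2 on the opposite strand. Arl4a averaged 315 CPM under IL-6 and 187 CPM in medium in ChimP3V3 cells, and 167 and 148 CPM in gp130:IL-6R cells (difference 0.58, adjusted p = 1.45e-06), and was gained rather than enlarged without gp130:IL-6R IL-6 replicate 3 or gp130:IL-6R medium replicate 1, 2 or 3, since its gp130:IL-6R response was near the threshold, at 0.17 (adjusted p = 0.0246). Enlarged falls were Ccne1 (cyclin E1), Rrm2 (a subunit of ribonucleotide reductase), Shmt2 (serine hydroxymethyltransferase of mitochondria) and Ifitm3 (an antiviral membrane protein). Rrm2 averaged 79.4 CPM under IL-6 and 134 CPM in medium in ChimP3V3 cells, and 195 and 221 CPM in gp130:IL-6R cells (difference -0.58, SE 0.0908, adjusted p = 3.35e-06). Ifitm3 had a difference of -0.50, adjusted p = 0.000597 and Shmt2 of -0.53, adjusted p = 0.000419. Ccne1, at -0.64, adjusted p = 0.0106, was gained rather than enlarged when any ChimP3V3 IL-6 or any gp130:IL-6R IL-6 library, or gp130:IL-6R medium replicate 2, 3 or 4, was left out.

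Gained genes responded in ChimP3V3 cells without a called change in gp130:IL-6R cells. Elf3, an ETS factor, had 9.40, 5.95, 4.65 and 5.63 CPM in ChimP3V3 cells under IL-6 and 1.39, 1.92, 1.38 and 2.04 CPM in ChimP3V3 medium, and 17.0, 16.5, 15.9 and 13.3 CPM in gp130:IL-6R cells under IL-6 and 16.5, 19.8, 12.8 and 20.4 CPM in gp130:IL-6R medium. Its ChimP3V3 IL-6 libraries lay above ChimP3V3 medium and below all gp130:IL-6R libraries, which overlapped each other. The difference was 2.05, SE 0.480, adjusted p = 0.00122 (edgeR). Tbcd, a tubulin folding cofactor, averaged 27.1 CPM under IL-6 and 9.92 CPM in medium in ChimP3V3 cells, and 10.9 and 12.6 CPM in gp130:IL-6R cells (difference 1.65, adjusted p = 0.000211), and Irf5, an interferon regulatory factor, had a difference of 1.37, adjusted p = 0.00983 that did not pass in DESeq2 (adjusted p = 0.0532). Both overlap genes on the opposite strand. Cabyr, a calcium-binding protein known from sperm, had a difference of 2.01, adjusted p = 0.0135, which did not pass without gp130:IL-6R medium replicate 3 (adjusted p = 0.0714).

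Rgcc, a regulator of the cell cycle (ENSMUSG00000022018, chromosome 14, 79526196 to 79539085, minus strand), was gained as a fall. It had 12.3, 6.69, 12.4 and 9.65 CPM in ChimP3V3 cells under IL-6 and 38.2, 33.3, 42.7 and 27.2 CPM in ChimP3V3 medium, and 26.6, 38.8, 33.2 and 31.6 CPM in gp130:IL-6R cells under IL-6 and 36.9, 31.9, 29.2 and 27.6 CPM in gp130:IL-6R medium. The ChimP3V3 IL-6 libraries lay below all other libraries, which overlapped across the 3 remaining groups. The difference was -1.82, SE 0.254, adjusted p = 4.79e-07 (edgeR). Rapsn, which anchors acetylcholine receptors in muscle, averaged 6.99 CPM under IL-6 and 22.4 CPM in medium in ChimP3V3 cells, and 4.99 and 4.05 CPM in gp130:IL-6R cells (difference -1.95, adjusted p = 0.00572), and Zfp960, a zinc-finger gene, had a difference of -1.39, adjusted p = 0.000326. Dync2i1, of the dynein of cilia, had a difference of -1.45, adjusted p = 0.000195, and was reversed without gp130:IL-6R IL-6 replicate 1 or gp130:IL-6R medium replicate 1 or 2.

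Close kept genes changed alike within the stated bound. Ctf2, a cytokine gene of the IL-6 family that overlaps Ctf1, averaged 43.3 CPM under IL-6 and 19.4 CPM in medium in ChimP3V3 cells, and 34.5 and 16.3 CPM in gp130:IL-6R cells, with responses of 1.15 in ChimP3V3 cells and 1.06 in gp130:IL-6R cells. Nfil3, a leucine-zipper repressor, averaged 41.5 CPM under IL-6 and 20.05 CPM in medium in ChimP3V3 cells, and 102 and 54.0 CPM in gp130:IL-6R cells (difference 0.13, adjusted p = 0.707). Ndrg1, a stress and hypoxia gene, had 296, 289.9, 302 and 313 CPM in ChimP3V3 cells under IL-6 and 159, 145, 155 and 157 CPM in ChimP3V3 medium, and 275, 258, 274 and 270.2 CPM in gp130:IL-6R cells under IL-6 and 127, 114, 111 and 124 CPM in gp130:IL-6R medium. Its IL-6 libraries lay above medium libraries in both lines, and the responses were 0.96 in ChimP3V3 cells and 1.18 in gp130:IL-6R cells. The difference of -0.22, adjusted p = 0.0546 was just outside the call, and passed without ChimP3V3 IL-6 replicate 1, 2, 3 or 4, ChimP3V3 medium replicate 2, gp130:IL-6R IL-6 replicate 1, 2 or 4, or gp130:IL-6R medium replicate 1 (adjusted p from 0.016 to 0.046). The linker histone gene H1f2 averaged 421 CPM under IL-6 and 177 CPM in medium in ChimP3V3 cells, and 444 and 166 CPM in gp130:IL-6R cells, and its difference of -0.17, adjusted p = 0.0983 passed without ChimP3V3 IL-6 replicate 1 (0.0464) or 4 (0.0162) or gp130:IL-6R IL-6 replicate 4 (0.0209), as an adjusted p in each case. Histone genes share sequence, so its level is uncertain. Kept falls were those of Parpbp, the replication factor gene Mcm10, the kinesin gene Kif22 and the condensin gene Ncapg2, whose differences were 0.06, 0.05, 0.04 and -0.06 log2 units.

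**Figure D2:**
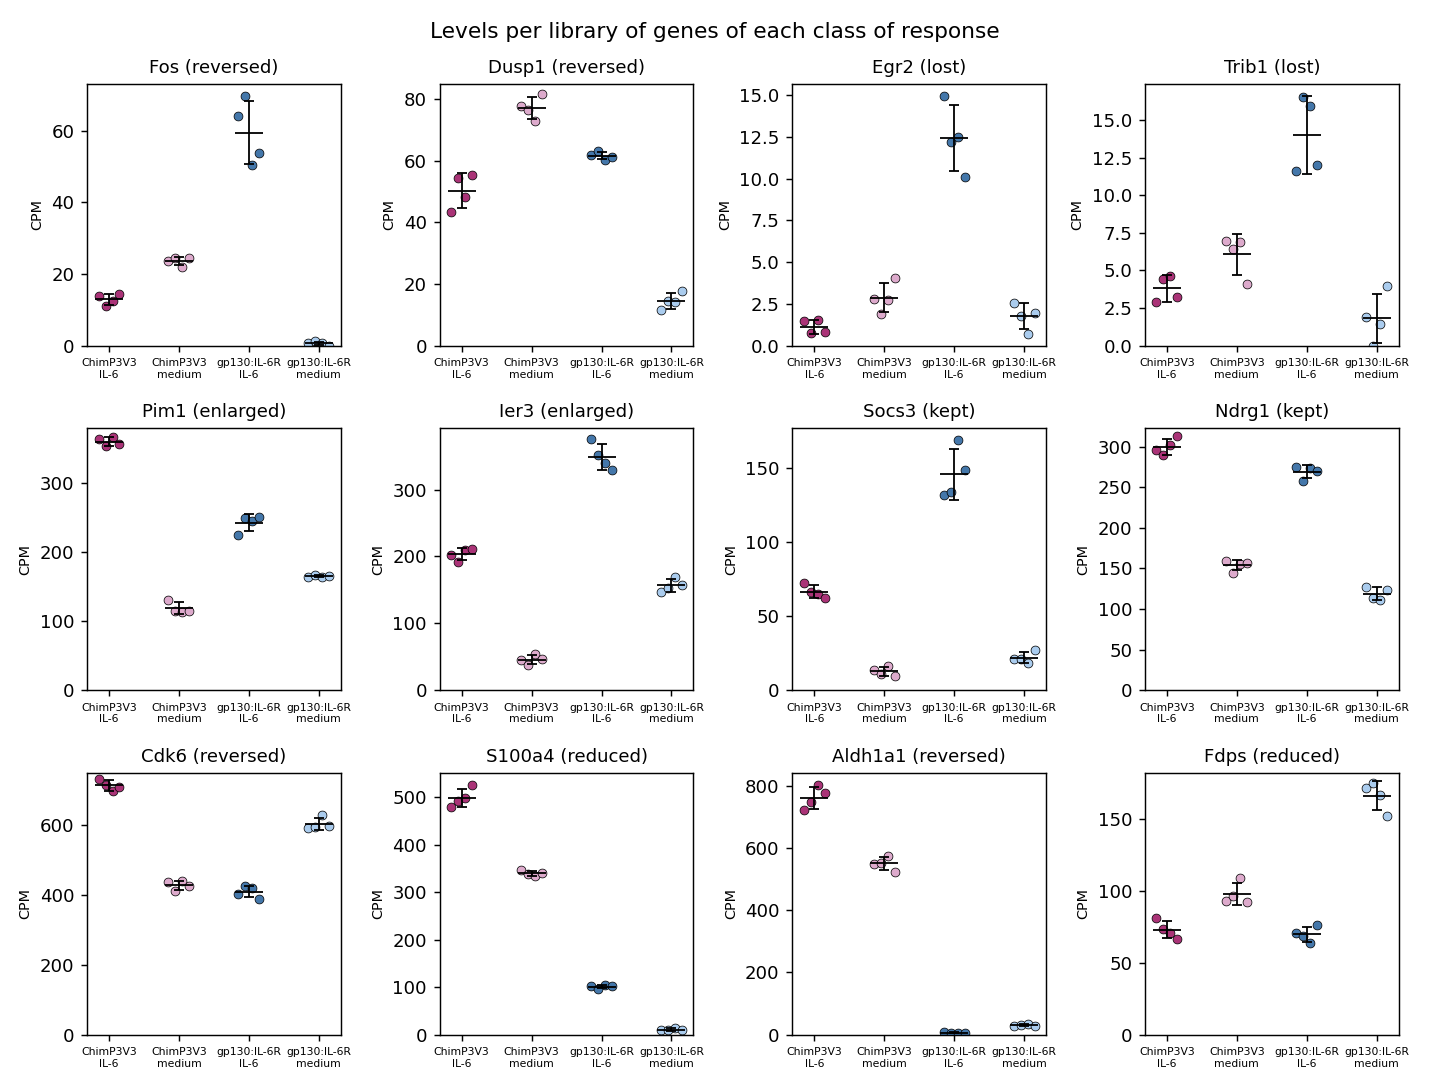
Levels in CPM of 12 genes in every library of the 4 groups, each panel with its own linear axis from 0. Points are libraries, bars the mean and SD of 4 libraries. Fos and Dusp1 fell in ChimP3V3 cells and rose in gp130:IL-6R cells, Egr2 and Trib1 stood high in gp130:IL-6R cells under IL-6, and Pim1 reached its highest level in ChimP3V3 cells under IL-6.

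Mitosis genes were mostly kept. Of 30 mitosis genes, 28 fell in ChimP3V3 cells and 30 in gp130:IL-6R cells, against 11.4% and 24.3% of all genes tested. Kept members numbered 24, against 12.8% of all genes tested, and all 24 were close. The difference was called in 5 of 30 (16.7%, against 23.9% of all genes), with a median of 0.05. Ccnb2 (cyclin B2) was lost, with means of 92.8 CPM under IL-6 and 103 CPM in medium in ChimP3V3 cells, and 85.0 and 144 CPM in gp130:IL-6R cells, Ccna2, Bub1b and Ttk were reduced, and Incenp, of the chromosomal passenger complex, was enlarged (difference -0.31, adjusted p = 0.00886). Bub1b, a spindle checkpoint kinase gene, had a difference of 0.59, adjusted p = 0.00309, and was lost without ChimP3V3 IL-6 replicate 1 or ChimP3V3 medium replicate 2 or 3.

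DNA replication genes split more. Of 40 genes, 30 fell and 2 rose in ChimP3V3 cells, and 33 fell and 1 rose in gp130:IL-6R cells. The difference was called in 18 (45%), 13 higher and 5 lower. The helicase genes Mcm2, Mcm4 and Mcm7 were reduced and Mcm6 was lost, with differences of 0.62, 0.46, 0.30 and 0.62, whereas Mcm3 and Mcm5 were kept. Mcm6 averaged 418 CPM under IL-6 and 425 CPM in medium in ChimP3V3 cells, and 228 and 358 CPM in gp130:IL-6R cells. The DNA ligase gene Lig1 was reduced, with a difference of 0.44, adjusted p = 3.82e-07.

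Among G1 regulators, Cdk6, a kinase that drives entry into the cell cycle (ENSMUSG00000040274, chromosome 5, 3391485 to 3581008, plus strand), had 732, 713, 696 and 708 CPM in ChimP3V3 cells under IL-6 and 435, 409.6, 439 and 425 CPM in ChimP3V3 medium, and 403, 426, 419 and 388 CPM in gp130:IL-6R cells under IL-6 and 591, 595, 627 and 597 CPM in gp130:IL-6R medium. It rose in ChimP3V3 cells and fell in gp130:IL-6R cells, and ChimP3V3 medium and gp130:IL-6R IL-6 libraries lay at about the same level. The responses were 0.74 in ChimP3V3 cells and -0.56 in gp130:IL-6R cells (difference 1.30, SE 0.0528, adjusted p = 4.47e-22, edgeR). Ccnd3, which encodes the partner cyclin D3, was also reversed, with responses of 0.23 in ChimP3V3 cells and -0.34 in gp130:IL-6R cells, and was lost without ChimP3V3 IL-6 replicate 1. Cdkn2c, an inhibitor of Cdk6, was gained as a fall, with a difference of -0.81, adjusted p = 0.000168. In all, 6 of 12 tested G1 genes had a called difference (50%), 3 in each direction.

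Of 24 tested cholesterol synthesis genes, 13 fell in ChimP3V3 cells and 19 in gp130:IL-6R cells, where 1 rose. All 13 called differences (54.2%) were higher in ChimP3V3 cells, and the median difference was 0.39. Fdps, which makes farnesyl diphosphate (ENSMUSG00000059743, chromosome 3, 89000895 to 89009266, minus strand), had 81.0, 73.6, 70.6 and 66.7 CPM in ChimP3V3 cells under IL-6 and 93.1, 96.8, 109 and 92.3 CPM in ChimP3V3 medium, and 70.8, 68.9, 63.7 and 76.4 CPM in gp130:IL-6R cells under IL-6 and 172, 175, 167 and 152 CPM in gp130:IL-6R medium. Under IL-6 the lines overlapped, while gp130:IL-6R medium lay above all other groups. The difference was 0.83, SE 0.116, adjusted p = 4.9e-07 (edgeR). Fdps overlaps the predicted gene Gm43738. Nsdhl, a sterol dehydrogenase gene, was lost, with means of 53.4 CPM under IL-6 and 62.0 CPM in medium in ChimP3V3 cells, and 50.0 and 113 CPM in gp130:IL-6R cells (difference 0.96, adjusted p = 8.53e-07). Idi1, an isomerase of the same pathway, had a difference of 0.70, adjusted p = 1.59e-10, and was lost without ChimP3V3 medium replicate 1, 3 or 4.

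Ribosome biogenesis and MYC target genes were counted in the same way. Of 46 genes, 10 rose and 9 fell in ChimP3V3 cells, and 6 rose and 28 fell in gp130:IL-6R cells. The difference was called in 17 (37.0%, against 23.9% of all genes tested), higher in 16 and lower in 1 (Polr1c), with a median of 0.25, and 13 falls were lost. Nolc1, a nucleolar chaperone gene, averaged 88.1 CPM under IL-6 and 91.5 CPM in medium in ChimP3V3 cells, and 111 and 187 CPM in gp130:IL-6R cells (difference 0.69, adjusted p = 1.81e-06). Wdr12, a factor of large-subunit assembly, was reversed (difference 0.82, adjusted p = 1.85e-08). Dkc1, the pseudouridine synthase of the nucleolus, had responses of 0.15 in ChimP3V3 cells and -0.38 in gp130:IL-6R cells, and was lost rather than reversed without ChimP3V3 IL-6 replicate 2, 3 or 4, ChimP3V3 medium replicate 3 or 4, or gp130:IL-6R IL-6 replicate 1 or 4. Ribosomal protein genes differed from this list, since 73 of 80 were kept, all 73 as rises, against 12.8% kept over all genes tested. Only 2 had a called difference (2.50%, against 23.9% of all genes tested).

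Of 28 glycolysis and hypoxia genes, 17 rose and 2 fell in ChimP3V3 cells, and 20 rose and 2 fell in gp130:IL-6R cells. The difference was higher in 5 and lower in 10 (53.6% in all), while the median difference was above 0, at 0.10. Gpi1, Pgk1 and the glucose transporter gene Slc2a1 were reduced, and Gapdh, Eno1, Pkm and Pfkl were lost. Slc2a3, another glucose transporter gene, was reversed, with means of 63.1 CPM under IL-6 and 83.7 CPM in medium in ChimP3V3 cells, and 272 and 193 CPM in gp130:IL-6R cells (difference -0.91, SE 0.105, adjusted p = 8.03e-09). Hk2, a hexokinase gene, was gained, with means of 408 CPM under IL-6 and 265 CPM in medium in ChimP3V3 cells, and 251 and 238 CPM in gp130:IL-6R cells (difference 0.55, SE 0.0664, adjusted p = 2.3e-08). Gpi1, a glycolytic isomerase, had a difference of -0.41, adjusted p = 7.85e-07, and was lost without ChimP3V3 IL-6 replicate 3.

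Genes of the integrated stress response had 10 called differences among 24 tested genes (41.7%), all 10 lower in ChimP3V3 cells, with a median of -0.34. Atf5, a transcription factor of this pathway, was lost. It had 55.7, 54.3, 50.4 and 47.4 CPM in ChimP3V3 cells under IL-6 and 50.7, 54.5, 53.03 and 54.3 CPM in ChimP3V3 medium, and 109, 116, 107 and 107 CPM in gp130:IL-6R cells under IL-6 and 43.9, 45.1, 46.3 and 49.3 CPM in gp130:IL-6R medium. Only the gp130:IL-6R IL-6 libraries stood above the rest (difference -1.28, SE 0.129, adjusted p = 2.84e-10, edgeR). Atf5 overlaps Il4i1 and Nup62 on the opposite strand. The serine synthesis genes Phgdh and Psat1 and the asparagine synthetase gene Asns were gained as falls. Phgdh averaged 58.5 CPM under IL-6 and 105 CPM in medium in ChimP3V3 cells, and 115 and 103 CPM in gp130:IL-6R cells (difference -0.99, adjusted p = 1.04e-07), and was reversed without gp130:IL-6R IL-6 replicate 1. Psat1 had a difference of -0.50, adjusted p = 3.48e-08.

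The list of folding in the endoplasmic reticulum and its stress response had 12 called differences of 23 (52.2%), 1 higher (Calr) and 11 lower, with a median of -0.20. Dnajb9, a co-chaperone induced by this stress, averaged 185 CPM under IL-6 and 109.9 CPM in medium in ChimP3V3 cells, and 168 and 54.9 CPM in gp130:IL-6R cells (difference -0.86, SE 0.111, adjusted p = 1.03e-07). Herpud1, of protein degradation at this organelle, had a difference of -0.87, adjusted p = 7.11e-12, and was lost without ChimP3V3 IL-6 replicate 1 or 2. P4hb, a disulfide isomerase gene, was lost, at -0.49, adjusted p = 1.57e-08. Heat shock chaperones had 10 called differences of 16 (62.5%), 7 higher and 3 lower. Stip1, a co-chaperone, was higher (difference 0.51, adjusted p = 6.09e-05; reduced rather than lost without ChimP3V3 IL-6 replicate 3 or ChimP3V3 medium replicate 2), while Hspa9 and Dnaja1 were lower, at -0.37 and -0.34.

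Targets of p53, the tumour suppressor, rose in 9 of 23 cases and fell in 1 in ChimP3V3 cells, and rose in 16 in gp130:IL-6R cells. The difference was called in 12 (52.2%), 1 higher (Ccng2) and 11 lower, with a median of -0.32. Trp53inp1, a stress-induced regulator of p53 and autophagy (ENSMUSG00000028211, chromosome 4, 11156431 to 11174379, plus strand), had 86.0, 87.7, 87.7 and 84.4 CPM in ChimP3V3 cells under IL-6 and 90.3, 89.1, 93.7 and 93.0 CPM in ChimP3V3 medium, and 98.0, 105, 100.4 and 112 CPM in gp130:IL-6R cells under IL-6 and 28.6, 26.5, 25.7 and 19.1 CPM in gp130:IL-6R medium. The gp130:IL-6R medium libraries lay far below all others, and ChimP3V3 cells were already high in medium. The difference was -2.13, SE 0.130, adjusted p = 1.22e-16 (edgeR). Mdm2, the ubiquitin ligase of p53, was lost (difference -0.77, adjusted p = 5.58e-08). Ccng1, cyclin G1, was reduced (-0.40, adjusted p = 1.07e-05) and was lost without ChimP3V3 IL-6 replicate 2. Targets of FOXO factors had 7 called differences of 22 (31.8%, against 23.9% of all genes tested), 3 higher and 4 lower, with Klhl24 reduced (-0.51, adjusted p = 2.35e-07) and Ccng2 gained (0.30, adjusted p = 0.000396).

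Interferon-stimulated genes had 10 called differences of 31 (32.3%, against 23.9% of all genes tested), 1 higher (Psmb8) and 9 lower. Gbp7, a guanylate-binding protein whose promoter is shown above, averaged 39.6 CPM under IL-6 and 49.2 CPM in medium in ChimP3V3 cells, and 21.7 and 11.1 CPM in gp130:IL-6R cells (difference -1.28, SE 0.232, adjusted p = 4.24e-05). Its ChimP3V3 response was near the threshold, at -0.31 (adjusted p = 0.0585), and it was reversed without ChimP3V3 IL-6 replicate 2 or 3, ChimP3V3 medium replicate 3, or gp130:IL-6R IL-6 replicate 1 or 4. The related GTPase genes Irgm1 and Irgm2 were lost, with differences of -1.39 and -1.51, as was Trim25 (-0.81, adjusted p = 8.53e-07). Ifitm1 was reversed at -0.44, adjusted p = 7.21e-07. Genes of MHC class I presentation had 7 of 18 (38.9%, against 23.9%), 3 higher and 4 lower. B2m, the light chain, was reduced (-0.42, adjusted p = 1.13e-07) and was lost without ChimP3V3 IL-6 replicate 2, whereas the peptide transporter gene Tap2 was gained (0.51, adjusted p = 4.38e-05). Pdia3 was reversed (-0.35, adjusted p = 0.000188) and lost without ChimP3V3 medium replicate 4.

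Targets of NF-kB had 5 called differences of 19 (26.3%, against 23.9% of all genes tested), 2 higher (Ier3 and Cflar) and 3 lower (Nfkbia, Rel and Relb). Nfkbia, the inhibitor that NF-kB induces (ENSMUSG00000021025, chromosome 12, 55536195 to 55539432, minus strand), had 274, 253, 302 and 276 CPM in ChimP3V3 cells under IL-6 and 299, 269, 260.3 and 262 CPM in ChimP3V3 medium, and 327, 294, 303 and 292 CPM in gp130:IL-6R cells under IL-6 and 122, 115, 102 and 128 CPM in gp130:IL-6R medium. Again the gp130:IL-6R medium libraries stood alone at the low end, and the other groups overlapped. The difference was -1.36, SE 0.0851, adjusted p = 3.01e-16 (edgeR). Rel, a subunit, had a difference of -0.88, adjusted p = 0.00101. In the BCL2 family and apoptosis list, 7 of 24 (29.2%, against 23.9%) differed, 4 higher and 3 lower. Bcl2, a survival gene, was reversed, with means of 829 CPM under IL-6 and 692 CPM in medium in ChimP3V3 cells, and 203 and 280.0 CPM in gp130:IL-6R cells (difference 0.72, SE 0.0648, adjusted p = 1.11e-11), Mcl1 was reduced (-0.37, adjusted p = 1.15e-05) and Bnip3 enlarged (0.25, adjusted p = 0.000503).

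The list of globin and erythroid or megakaryocyte genes had 16 rises and 1 fall among 26 tested genes in ChimP3V3 cells, and 5 rises and 7 falls in gp130:IL-6R cells. Of these members, 7 had 0 counts in a whole group, and the other 19 had 10 rises and 1 fall in ChimP3V3 cells, and 5 rises and 7 falls in gp130:IL-6R cells. The difference was higher in 8 and lower in 3 (42.3%), and the median was 0.59, or 0.33 over those 19. Klf1, the erythroid Kruppel-like factor (ENSMUSG00000054191, chromosome 8, 85628557 to 85631924, plus strand), had 123, 148, 142 and 137 CPM in ChimP3V3 cells under IL-6 and 129, 124, 123 and 115 CPM in ChimP3V3 medium, and 15.7, 16.5, 22.2 and 22.7 CPM in gp130:IL-6R cells under IL-6 and 51.5, 58.3, 44.9 and 65.0 CPM in gp130:IL-6R medium. All ChimP3V3 libraries lay above all gp130:IL-6R libraries. IL-6 libraries overlapped medium libraries in ChimP3V3 cells and lay below them in gp130:IL-6R cells (difference 1.67, SE 0.161, adjusted p = 7.76e-11, edgeR). Gata1, the erythroid master factor, was lost likewise, with means of 78.8 CPM under IL-6 and 87.7 CPM in medium in ChimP3V3 cells, and 22.98 and 54.2 CPM in gp130:IL-6R cells (difference 1.09, SE 0.155, adjusted p = 7.27e-07), and so were Lmo2 and the haem synthesis gene Urod. Nfe2 was gained (0.60, adjusted p = 6.97e-07) and was reversed without gp130:IL-6R IL-6 replicate 4 or gp130:IL-6R medium replicate 4. The globin genes Hbb-bs and Hbb-y had 0 counts in gp130:IL-6R medium and no called difference.

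S100 proteins, annexins and vimentin rose in 7 of 20 cases and fell in 3 in ChimP3V3 cells, and rose in 15 and fell in 1 in gp130:IL-6R cells (13 and 1 without 2 members that had 0 counts in a whole group). The difference was higher in 1 (S100a1) and lower in 8 (45% in all), with a median of -0.36, or -0.55 over the 18 members with a count in every group. Anxa1, a calcium-dependent membrane-binding protein (ENSMUSG00000024659, chromosome 19, 20350792 to 20368308, minus strand), had 217, 241, 232 and 215 CPM in ChimP3V3 cells under IL-6 and 262, 259.6, 289.9 and 276 CPM in ChimP3V3 medium, and 64.0, 48.1, 50.6 and 47.4 CPM in gp130:IL-6R cells under IL-6 and 4.46, 7.22, 7.13 and 7.88 CPM in gp130:IL-6R medium. All ChimP3V3 libraries lay above all gp130:IL-6R libraries, and the IL-6 libraries lay below medium in ChimP3V3 cells and above medium in gp130:IL-6R cells. The difference was -3.23, SE 0.189, adjusted p = 3.96e-17 (edgeR). Vim, the intermediate filament vimentin, was reversed too (-1.07, adjusted p = 4.33e-17), as was Lgals1. Targets of STAT5 and interleukin-3 had 8 called differences of 17 (47.1%), 3 higher and 5 lower, with Socs2 lost (-0.77, adjusted p = 2.26e-07; reversed without ChimP3V3 IL-6 replicate 1).

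**Figure D3:**
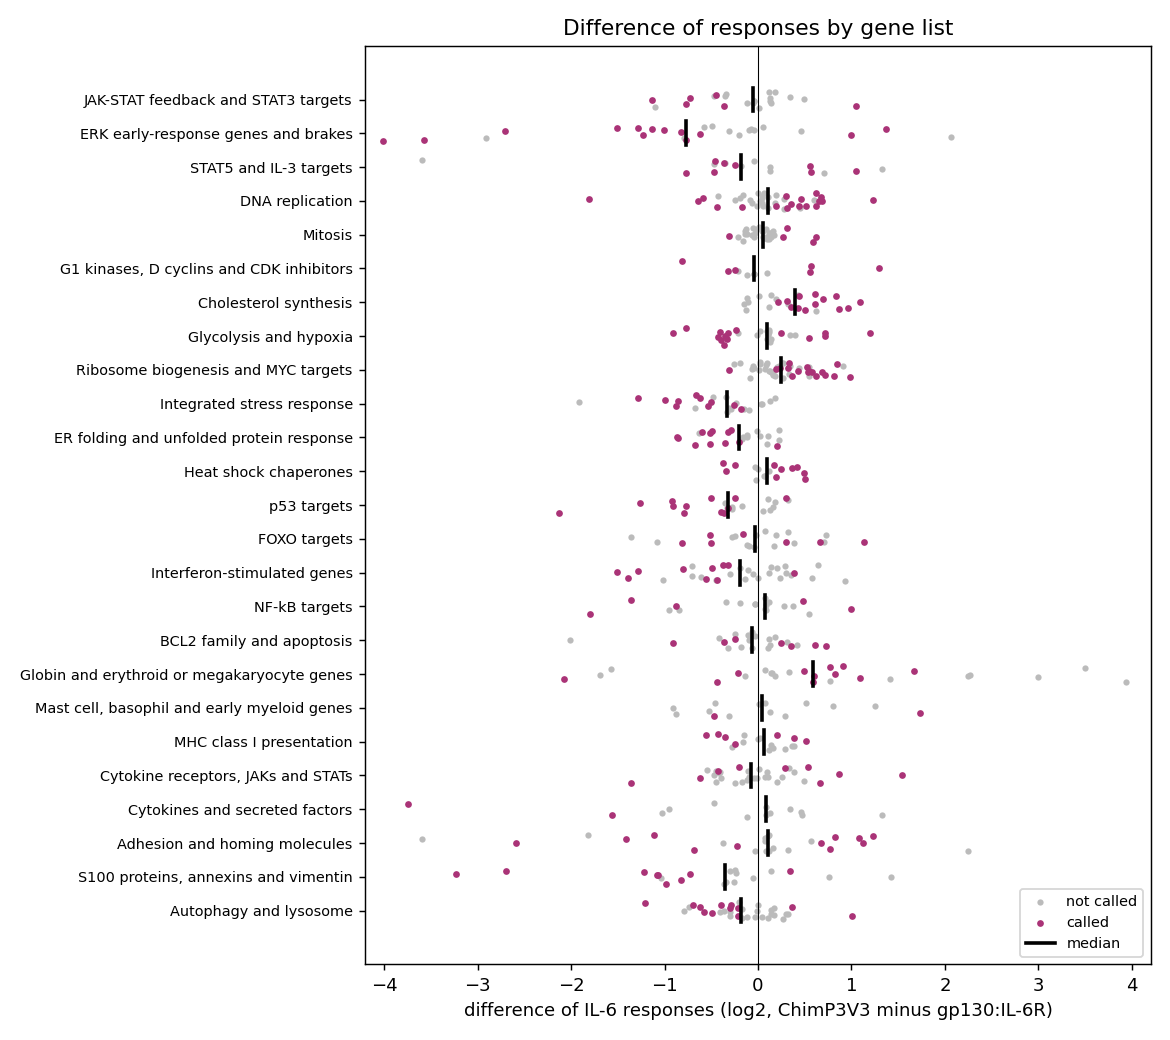
Difference of responses (log2, ChimP3V3 minus gp130:IL-6R) of each tested member of the gene lists, 1 point per gene, with the median as a bar. Called members are coloured. Fos at -7.20 and Fosb at -7.46 lie beyond the axis. Lists of 10 or more tested genes are drawn. The median was -0.77 for ERK early-response genes, 0.39 for cholesterol synthesis genes and 0.59 for globin and erythroid or megakaryocyte genes (0.33 without members at 0 counts in a whole group).

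**Figure D4:**
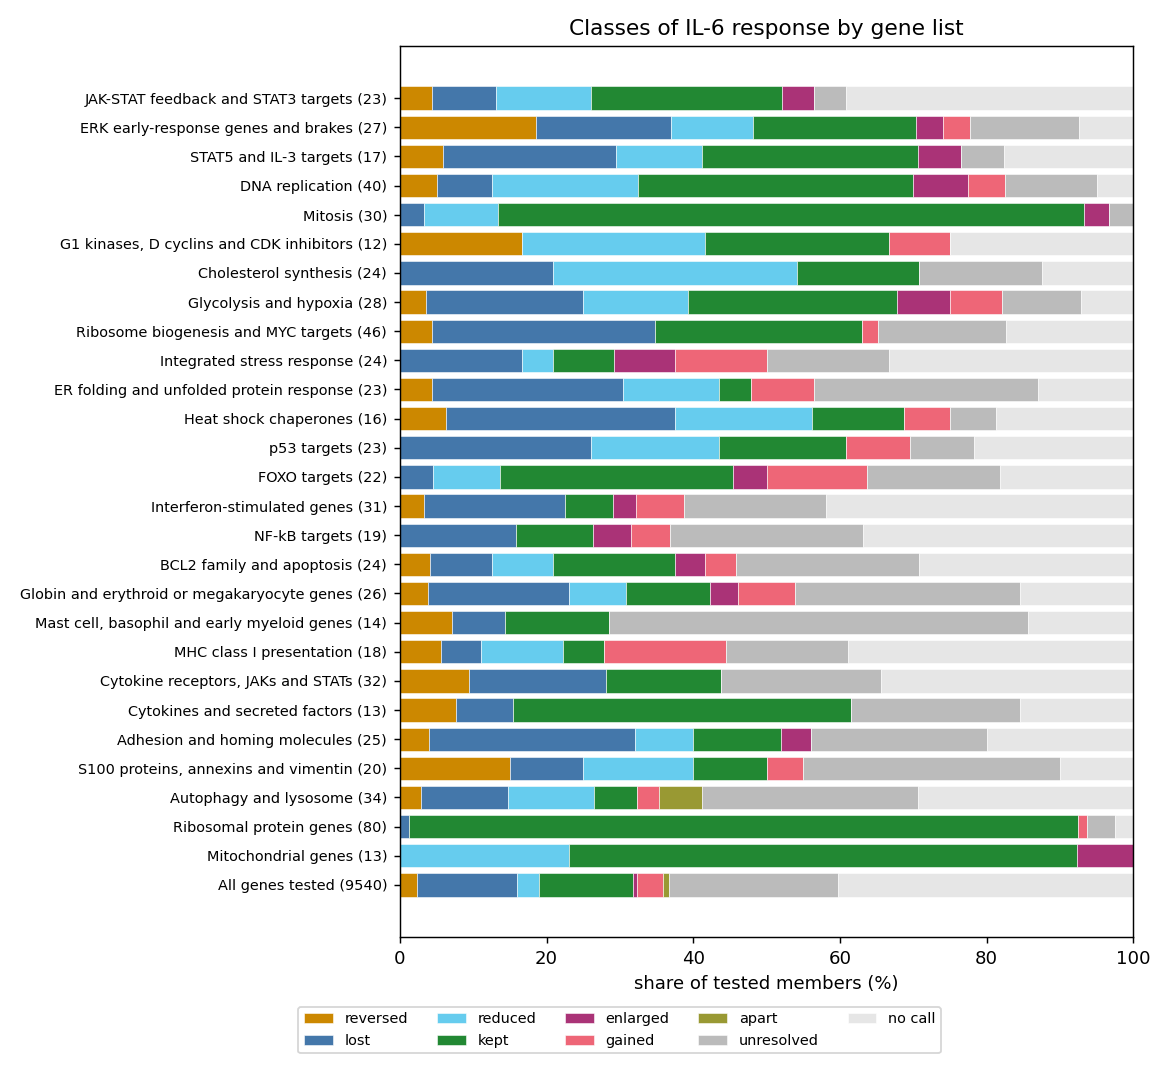
Share of the tested members of each list in each class of response (percent), with all 9540 tested genes in the lowest bar and the number tested in brackets. Kept genes fill most of the bars of mitosis (24 of 30) and ribosomal protein genes (73 of 80), while lost and reduced genes take 13 of 24 cholesterol synthesis genes.

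Levels in medium stood beside these classes. The lines differed in medium in 6209 genes (65.1%), 3021 higher in ChimP3V3 cells (31.7%) and 3188 lower (33.4%). Of the 708 lost genes that rose in gp130:IL-6R cells, 399 (56.4%) were higher in ChimP3V3 medium than in gp130:IL-6R medium and 102 were lower. Of the 602 lost genes that fell, 75 were higher and 378 (62.8%) lower. Of the reduced genes, 121 of 171 rises (70.8%) were higher and 86 of 117 falls (73.5%) lower in ChimP3V3 medium. Among kept genes, 317 of 631 rises (50.2%) were higher and 334 of 592 falls (56.4%) lower. In 206 of the 708 lost rises the mean of ChimP3V3 medium lay above both gp130:IL-6R groups, in 320 between them, and in 182 below both. The medium libraries enter both the medium comparison and the difference of responses, so these counts are not independent of each other and were not tested against each other.

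**Figure D5:**
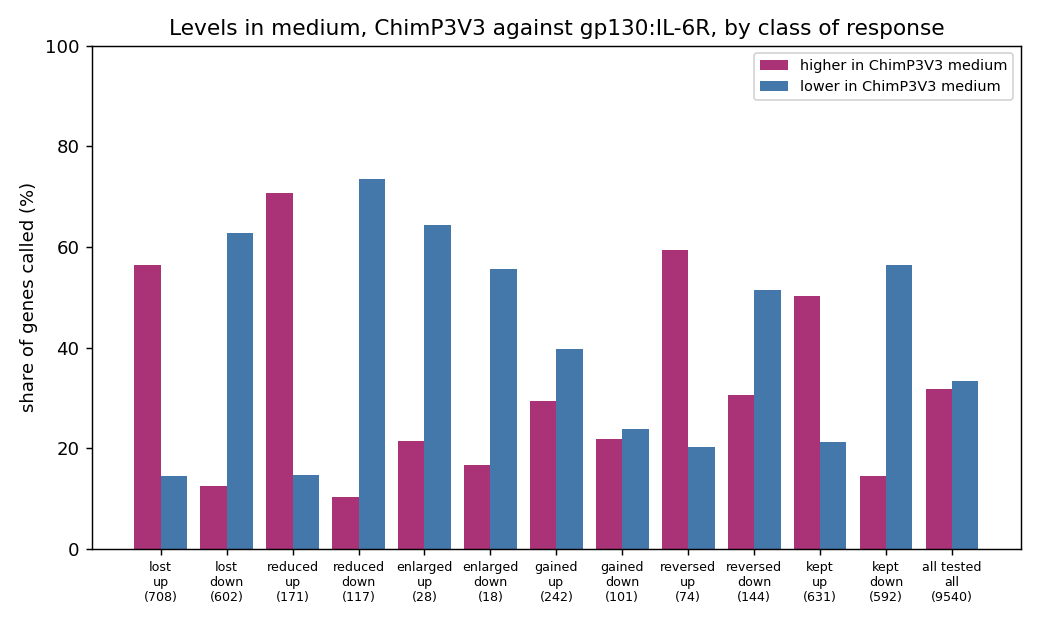
Share of genes of each class (percent) that were called higher or lower in ChimP3V3 medium than in gp130:IL-6R medium, by the direction of the response, with all tested genes at the right and gene numbers in brackets. The share higher in ChimP3V3 medium was 56.4% for lost rises and 50.2% for kept rises, against 31.7% of all tested genes.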

How the data were processed

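Single-end 3′ mRNA sequencing (QuantSeq FWD, NextSeq2000) was made from total RNA of 16 Ba/F3 libraries in 4 groups of 4, per the labels' protocols. The authors deposited raw counts per gene for every library, on GRCm39 per the submitters' processing notes, and these counts were used as deposited. The sources used here give no strand setting. The 48 other per-library columns of the same table were not used. CPM values here were computed from the counts and the library totals, which ranged from 1275112 to 1650348 counts. Intervals came from the same edgeR fit as the p-values, so they measure the spread between these libraries, which may be technical. Floors cover counting error only, and reads without molecular identifiers are not independent molecules.

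Genes with low counts were removed with filterByExpr (minimum count 10, minimum total 15), which left 9540 genes with 99.6% of the counts. edgeR 4.0.16 (R 4.3.3) fitted 1 mean per group with TMM factors and 12 residual degrees of freedom, and its quasi-likelihood test gave the response of each line, the difference of responses and the difference of lines in medium, with Benjamini-Hochberg adjustment over all genes tested and calls at an adjusted p under 0.05. All tests were two-sided. The method was checked on simulated data. Libraries were grouped by their titles and treatments. Genes were classed by their calls, and no list was tested as a set. The text names core genes of IL-6 signalling, the 4 genes with the largest difference per class and direction (at least 5 CPM in a group and no overlap between IL-6 and medium libraries in each line with a called response), the 4 close kept genes per direction with the largest smaller response, and up to 3 called genes with the smallest p per list; other list members are named to show a class. A few genes that this rule or the lists hold are counted but not reported here. The classes, lists and members were chosen with earlier results of these data known.

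Alternatives were RLE and upper-quartile factors, other filters, DESeq2 1.42.0, limma 3.58.1 on log2(CPM + 1), a replicate block, thinning to the smallest total, a fit without genes averaging over 800 counts, stricter calls, leaving out each of the 16 libraries and, chosen after seeing the data, merging the closest pair of libraries of each group. Promoters (250 bases before the start) came from RefSeq on GRCm38.p6 and matched 7735 of 9540 tested genes (81.1%) and 98 of 121 named genes.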

Additional observations from a re-analysis of the deposited data

Results flagged for a closer look

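In 22 of 477 groups of 4 libraries examined over the named genes, 1 library stood far from the other 3 by Dixon's criterion at 95%, where chance alone gives about 5% of groups. Pim1 had 131 CPM in ChimP3V3 medium replicate 1, above the others at 114 to 115 CPM. Tlr4 had 28.9 CPM in ChimP3V3 medium replicate 3, above the others at 13.9 to 16.3 CPM. Olfm1 had 4.75 CPM in ChimP3V3 medium replicate 4, below the others at 8.95 to 9.73 CPM. Mcl1 had 259 CPM in ChimP3V3 medium replicate 4, below the others at 289 to 289.7 CPM. Stat3 had 217 CPM in ChimP3V3 IL-6 replicate 2, below the others at 219.8 to 220.3 CPM. Cltrn had 9.66 CPM in ChimP3V3 IL-6 replicate 2, above the others at 3.10 to 3.61 CPM. Cabyr had 17.1 CPM in ChimP3V3 IL-6 replicate 3, above the others at 13.7 to 14.1 CPM. Tbcd had 35.4 CPM in ChimP3V3 IL-6 replicate 4, above the others at 23.9 to 24.8 CPM. Gab1 had 61.3 CPM in ChimP3V3 IL-6 replicate 3, above the others at 37.8 to 40.1 CPM. Klf6 had 285 CPM in ChimP3V3 IL-6 replicate 2, below the others at 319 to 325 CPM. P4hb had 338 CPM in ChimP3V3 IL-6 replicate 4, above the others at 309 to 312 CPM. Ccng2 had 402 CPM in ChimP3V3 IL-6 replicate 4, below the others at 423 to 427 CPM. Atg12 had 238 CPM in ChimP3V3 IL-6 replicate 2, above the others at 220.5 to 223 CPM. Trim59 had 3.16 CPM in gp130:IL-6R IL-6 replicate 4, above the others at 2.04 to 2.15 CPM. Rrm2 had 200.2 CPM in gp130:IL-6R IL-6 replicate 4, above the others at 193 to 194 CPM. Ifitm1 had 1429.8 CPM in gp130:IL-6R IL-6 replicate 2, above the others at 1319 to 1333 CPM. Angptl2 had 1.91 CPM in gp130:IL-6R medium replicate 1, below the others at 3.94 to 4.28 CPM. Mcm10 had 71.9 CPM in gp130:IL-6R medium replicate 1, below the others at 78.2 to 79.4 CPM. Nolc1 had 191 CPM in gp130:IL-6R medium replicate 4, above the others at 185 to 186 CPM. Phgdh had 90.6 CPM in gp130:IL-6R medium replicate 3, below the others at 107 to 109 CPM. Hspa9 had 606 CPM in gp130:IL-6R medium replicate 3, above the others at 547 to 555 CPM. Bcl2 had 258 CPM in gp130:IL-6R medium replicate 4, below the others at 285 to 290.2 CPM. The calls of the genes concerned without each library are given with the results where they change.

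The response to IL-6 differed between the receptor lines in 2280 genes by edgeR's test of the difference itself, and in 218 of them the responses were called in opposite directions. Among the named reversed genes, the log2 difference of responses was negative, with a fall in ChimP3V3 cells and a rise in gp130:IL-6R cells, for Fos at -7.20, Fosb at -7.46, Dusp1 at -2.71, Angptl2 at -3.74, Trim16 at -3.53, Klf6 at -1.51, Slc2a3 at -0.91, Hspa9 at -0.37, Ifitm1 at -0.44, Pdia3 at -0.35, Anxa1 at -3.23 and Vim at -1.07. It was positive, with a rise in ChimP3V3 cells and a fall in gp130:IL-6R cells, for Cdk6 at 1.30, Olfm1 at 4.58, Aldh1a1 at 2.74, Ms4a3 at 1.73, Gab1 at 1.54, Ccnd3 at 0.57, Wdr12 at 0.82, Dkc1 at 0.53, Bcl2 at 0.72, Ifngr1 at 0.86, Ptpn11 at 0.53, Ccr2 at 0.68 and Atg12 at 1.00. The value of Olfm1 is a fitted one that depends on the prior count, since its gp130:IL-6R IL-6 libraries had 0 counts.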

How the results depend on the processing

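Over 28 alternative settings, none of the 103 named genes called changed the sign of its difference, whereas 7 of 17 not called did (Cish, Spred1, Ctf2, Parpbp, Mcm10, Kif22 and Ncapg2); 72 of 103 called genes kept the call in every setting, and 4 of the 17 passed in at least 1. A gene's class was less stable than its call, since 46 named genes held their class in every setting. DESeq2 called 1564 differences, with 744 higher in ChimP3V3 cells, and counted 179 reduced, 26 enlarged, 207 gained and 142 reversed genes; the cause was not tested. At an adjusted p under 0.01 there were 1453 differences (724 higher, 729 lower), with 161 reduced, 22 enlarged, 196 gained and 128 reversed genes, a stricter call by construction. With at least 1.5-fold required of every call, there were 1006 differences (394 higher, 612 lower), 510 responses in ChimP3V3 cells, 1558 responses in gp130:IL-6R cells, 3111 differences of the lines in medium and 3078 under IL-6, and 581 lost, 14 reduced, 2 enlarged, 95 gained, 27 reversed and 170 kept genes. Leaving out 1 library gave 2073 to 2200 differences (873 to 1166 higher and 1008 to 1228 lower), with 1197 to 1316 lost, 235 to 285 reduced, 35 to 53 enlarged, 274 to 334 gained, 181 to 215 reversed and 1097 to 1216 kept genes. The labels number the libraries 1 to 4 in each group. The deviations of libraries with the same number correlated at -0.079 to 0.116. Libraries of a group differed little beyond counting error, so this check could not show whether the numbers pair the libraries. A fit with the replicate number as a block called 2254 differences (1169 higher, 1085 lower). On log2(CPM + 1), which understates changes of low genes, limma gave differences of -6.08 for Fos, -6.08 for Fosb, -3.18 for Egr2, -2.52 for Tlr4, -2.83 for Trim16, 1.88 for Mip, -1.22 for Fbxo40, -1.29 for Trim59, 1.86 for Olfm1 and -0.13 for Socs1, against 4.79 for Fam216a. With the closest pair of libraries in each group merged, 2239 were called. In the unfiltered and 5 CPM settings, and without any 1 of 6 IL-6 libraries named in the report, called genes were mostly lower in ChimP3V3 cells. The median difference over all genes tested was -0.04 to -0.02 log2 units in those settings and 0.02 in the fit reported; the cause was not tested. Depth limits genes near the floor of 3 counts, which was 1.82 to 2.35 CPM in a library.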

Other observations

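Adhesion and homing molecules split in both directions. Of 25 tested genes, 6 had a higher and 5 a lower response in ChimP3V3 cells (44%, against 23.9% of all genes tested), with a median difference of 0.11. Ccr2, a chemokine receptor gene of monocytes, was reversed, with means of 211 CPM under IL-6 and 167 CPM in medium in ChimP3V3 cells, and 118 and 149 CPM in gp130:IL-6R cells (difference 0.68, adjusted p = 8.43e-08, edgeR). Lost rises were those of Cd53, a tetraspanin gene (-0.68, adjusted p = 1.03e-08), the chemokine receptor gene Cxcr2 (-1.41) and the metalloprotease gene Adam8 (-2.59). The lost falls were those of Itga6, Selplg, Icam2 and S1pr4, with differences of 0.77, 1.23, 0.83 and 1.08.

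Autophagy and lysosome genes had 12 called differences among 34 tested genes (35.3%, against 23.9% of all genes tested), 2 higher and 10 lower, with a median of -0.18. Sqstm1, which encodes the autophagy receptor p62, averaged 332 CPM under IL-6 and 345 CPM in medium in ChimP3V3 cells, and 663 and 299 CPM in gp130:IL-6R cells (difference -1.21, adjusted p = 8.46e-19), and overlaps Mrnip on the opposite strand. Hexa, a lysosomal hexosaminidase gene that overlaps Tmem202, was lost at -0.69, adjusted p = 2.41e-06. Atg12, a ubiquitin-like protein of autophagosome formation, was reversed, with means of 226 CPM under IL-6 and 159.9 CPM in medium in ChimP3V3 cells, and 229 and 324 CPM in gp130:IL-6R cells (difference 1.00, adjusted p = 6.41e-15). Of 13 tested cytokine and secreted factor genes, 2 differed (15.4%, against 23.9% of all genes tested). These were Angptl2 and Csf1, the macrophage growth factor gene, which was lost at -1.56, adjusted p = 5.48e-07 (edgeR). Of 14 tested mast cell and early myeloid genes, 2 differed (14.3%, against 23.9% of all genes tested), namely Ms4a3 and Spi1, which encodes the myeloid factor PU.1. Spi1 was lost at -0.48, adjusted p = 0.0267, and did not pass in DESeq2 (adjusted p = 0.0796) or without ChimP3V3 medium replicate 3 (0.0574) or 4 (0.0852) or gp130:IL-6R medium replicate 2 (0.0546) or 3 (0.0574).

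Markers of other cell types gave these values. The summed level of 16 T and NK cell markers was 6.69 to 8.84 CPM under IL-6 and 0.689 to 2.56 CPM in medium in ChimP3V3 cells, and 191 to 199 CPM under IL-6 and 78.4 to 97.4 CPM in medium in gp130:IL-6R cells, with 9 of the markers, among them Cd3e, Trac and Prf1, at 0 in all libraries. Gzmb was the only member tested, with responses of 2.49 in ChimP3V3 cells and 1.16 in gp130:IL-6R cells. It was classed as kept because its difference of 1.33 did not pass. With the whole list near the floor in ChimP3V3 medium, its response there is uncertain. Of 17 macrophage and dendritic cell markers, 6 were at 0 in all libraries, and the sums ran from 288 to 303 CPM under IL-6 and 219.7 to 256 CPM in medium in ChimP3V3 cells, and from 233 to 268 CPM under IL-6 and 224 to 264 CPM in medium in gp130:IL-6R cells. Of 17 pro-B markers, 4 were tested and 1, the transcription factor gene Tcf3, had a called difference (0.75, adjusted p = 9.83e-05). Of 12 fibroblast and epithelial markers, Vim was the only one tested.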
